A study of Homo sapiens with 6 samples.

Results

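The genes described here are the nuclear genes of the mitochondrial respiratory chain, the protein-coding genes outside the mitochondrial genome whose symbols begin with NDUF, SDHA to SDHD, UQCR, COX4 to COX8 or ATP5. Of 60708 gene identifiers, 102 carried such a symbol, and 90 of these reached a summed count of 200 over the 4 miR-99b-5p mimic libraries and were kept. They were 35 complex I subunits, 4 complex II subunits, 8 complex III subunits, 13 complex IV subunits (NDUFA4 included), 17 ATP synthase subunits and 13 assembly factors or regulators that the symbols also take in. The values came from AGO2-RIP-seq, in which RNA bound to Argonaute 2, the protein that holds miRNAs on their targets, is precipitated with an antibody and sequenced. The cells were MDA-MB-231, a mesenchymal-like line derived from a triple-negative breast cancer, so that all 6 libraries come from 1 line. They received either miR-99b-5p mimic or scrambled control oligonucleotide at 25 nM and were taken 18 hours after transfection. Both an AGO2-IP fraction and a flow-through fraction, which is what the antibody left unbound, were sequenced. The mimic had 2 libraries per fraction and the control 1, so values set against a control library have no replicate check. Which fraction a control library holds rests on its sample title alone, because the study's supplement describes the pair as replicates of the control without a fraction.

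The respiratory chain sits in the inner mitochondrial membrane and passes electrons from NADH (complex I) and succinate (complex II) through complex III and cytochrome c to oxygen at complex IV, while the proton gradient so built drives ATP synthase. A small set of large subunits carries the redox centres or the catalytic sites, and many short subunits surround them. All of complex II and most subunits of the other complexes are nuclear-encoded, made on cytosolic ribosomes and imported, whereas a few membrane subunits are encoded in mitochondrial DNA. A miRNA guides AGO2 to transcripts that pair with its seed, bases 2 to 8 from its 5′ end.

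The transfected miRNA and its matches among the members are shown because the mimic was the only treatment. The mature sequence, from RefSeq on GRCh38.p14 (chr19:51692618-51692639, plus strand), has the seed in capitals.
hsa-miR-99b-5p: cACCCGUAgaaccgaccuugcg
A match to at least 6 seed bases (ACGGGT on the transcript strand, counted also inside the longer forms, which are TACGGGT where base 8 pairs too, then ACGGGTA with an A after the seed, and TACGGGTA with both) lay in the GENCODE canonical transcript of 7 of 90 members, or 7.78%, against 17.1% of 11747 tested protein-coding genes. The 7-base forms were in 5.56% of members and 5.71% of genes, and the 8-base form in 2.22% and 0.604%. Member transcripts are shorter, with a median of 898 bases against 3492. In the windows below, read 5′ to 3′ from the transcripts, capitals mark the match.
NDUFB5: aaaggctgaatTACGGGTAaaggagctgga
NDUFAF1: aTACGGGTAaagtggcttctgggcggaagg
NDUFA10: cttggtggttgcACGGGTAgtgtcctcagc
NDUFA12: ccgaggctatcTACGGGTttttttcaggac
UQCRFS1: gaagtaaaattaACGGGTcatctaagtgtc
SDHA: tgtgcatagaggACGGGTccatccatcgca
The matches of NDUFB5 (plus strand, across an exon junction between chr3:179618518 and 179623923), NDUFA12 (chr12:95003604-95003610, minus strand) and SDHA (chr5:228285-228290, plus strand) were coding. Those of NDUFA10 (chr2:239959331-239959337, minus strand) and UQCRFS1 (chr19:29207153-29207158, minus strand) lay in the 3′ UTR and that of NDUFAF1 (chr15:41402488-41402495, minus strand) in the 5′ UTR. UQCRB, the seventh gene, held 2 matches in its 3′ UTR. These 7 genes had a median log2 ratio of mimic over control AGO2-IP of 0.26, with a range from -0.88 for SDHA to 0.48 for NDUFAF1, beside a median of 0.02 over all genes with that ratio. A match of letters is a description and not a binding site.

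Gene counts ranged from 38022779 to 48544756 in the mimic libraries and were 7772149 and 8076375 in the control flow-through and control AGO2-IP. Mitochondrially encoded transcripts made up 43.4% of the control flow-through counts and 3.48% of the control AGO2-IP counts but no more than 0.125% with mimic, and both control libraries had 73.7% and 76.7% of read pairs mapped to several places, against 2.38% to 19.2% with mimic. The part of both in the values set against control libraries was not tested. All 7 marker genes chosen for MDA-MB-231, VIM and CD44 among them, were counted in every library, the lowest value being 59 CPM (counts-per-million, over all gene counts of a library). Of 6 luminal markers, FOXA1 stayed at or below 0.165 CPM, ESR1, PGR and CDH1 at or below 3.96 CPM, while ERBB2 reached 172 CPM and GATA3 24.8 CPM. The 3 blood markers stayed at or below 1.86 CPM.

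Over the 6 libraries, the largest difference between the fractions in summed counts lay in 2 ATP synthase genes. ATP5F1A and ATP5F1B encode the alpha and beta subunits, which form the catalytic hexamer of the F1 part and hold the sites of ATP synthesis. Together they took 9.28% of all member counts in the control flow-through (95% exact binomial interval 8.94% to 9.63%, counting error only) and 45.1% in the control AGO2-IP (44.7% to 45.5%). In the mimic libraries they took 13.6% and 14.8% in the flow-through and 47.1% and 52.4% in the AGO2-IP. All 3 AGO2-IP libraries lay above all 3 flow-through libraries. Within ATP synthase, their part was 83.3% to 88.5% in AGO2-IP and 30.3% to 46.0% in flow-through libraries. The other 15 ATP synthase genes summed to 753, 1572 and 667 CPM in the control flow-through and mimic flow-through replicates 1 and 2, and to 684, 525 and 684 CPM in the corresponding AGO2-IP libraries. Those ranges overlap. These are bulk libraries of RNA fractions, so the values give neither the number of cells with a transcript nor the RNA per cell.

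**Figure D1:**
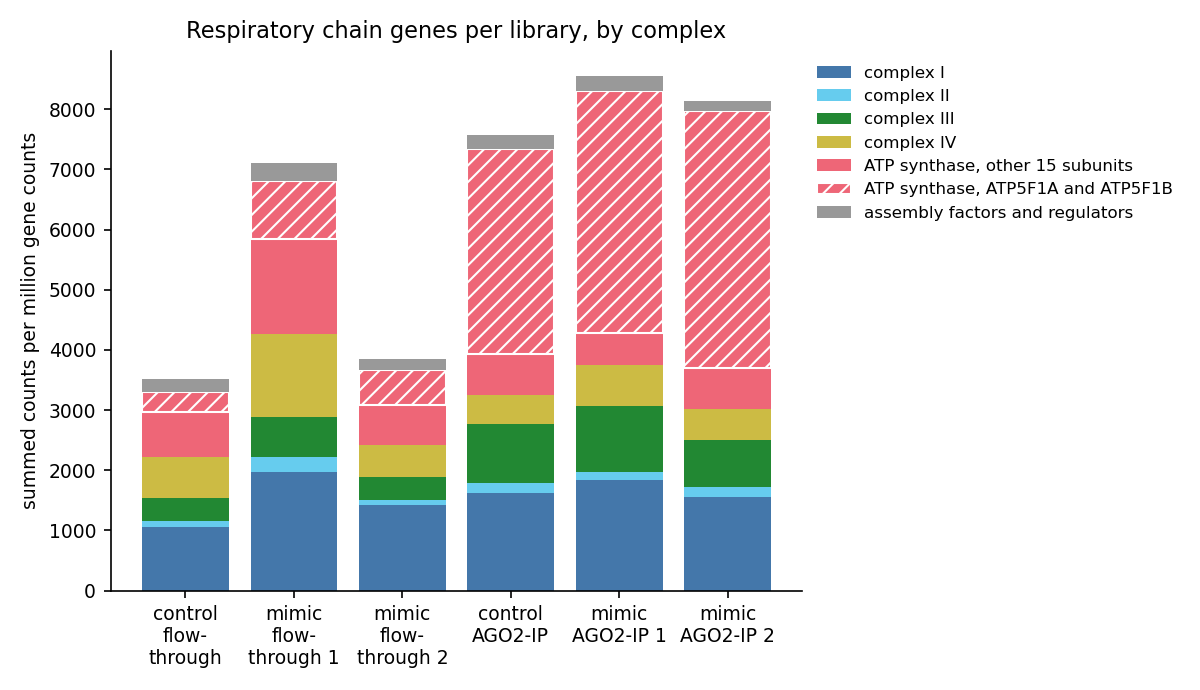
Summed CPM (y axis) of the 90 members in each of the 6 libraries (x axis), stacked by complex, with ATP5F1A and ATP5F1B hatched. The hatched part is 3415 to 4267 CPM in the AGO2-IP libraries and 327 to 969 CPM in the flow-through libraries.

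Summed over all 90 members, the flow-through level was 3521 CPM with control and 7106 and 3843 CPM with mimic, and the AGO2-IP level was 7575 CPM with control and 8543 and 8139 CPM with mimic. Without ATP5F1A and ATP5F1B it was 3194, 6136 and 3275 CPM in the flow-through libraries and 4161, 4516 and 3871 CPM in the AGO2-IP libraries, and the fractions overlapped. The flow-through of mimic replicate 1 had the highest sum of the flow-through libraries. Mitochondrially encoded genes made up 43.4% of the control flow-through counts, and the closing section gives its sum without them. Which mimic flow-through replicate the control lay nearer to depends on whether these genes are counted.

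The complexes took different parts of the member counts in the 2 fractions. Complex IV took 19.3% of member counts in the control flow-through (18.9% to 19.8%) and 6.38% in the control AGO2-IP (6.19% to 6.58%). With mimic it took 16.8% ± 3.92 (SD, n = 2) in the flow-through and 7.15% ± 1.21 (SD, n = 2) in the AGO2-IP, without overlap. A share also falls when other members rise, and the summed complex IV level overlapped, at 1391 and 539 CPM in the mimic flow-through and 684 and 512 CPM in the mimic AGO2-IP. Complex I took 29.8% and 21.4% in the control fractions, and 32.3% ± 6.48 (SD, n = 2) and 20.4% ± 1.64 (SD, n = 2) with mimic. Its summed level overlapped with mimic, at 1967 and 1416 CPM in the flow-through and 1839 and 1563 CPM in the AGO2-IP. In the control it was 1051 CPM in the flow-through and 1619 CPM in the AGO2-IP. Mitochondrially encoded genes made up 43.4% and 3.48% of the counts behind these 2 values, so they do not settle a direction. Complex II took the smallest part of the 5 complexes, 1.55% to 3.60% over the 6 libraries. Complex III ranged from 9.25% to 12.9%, and its AGO2-IP and flow-through values overlapped. Per kilobase of transcript, the median complex IV member lay at 74.0 and 27.0 CPM in the mimic flow-through libraries and at 16.5 and 19.3 CPM in the mimic AGO2-IP libraries. The median complex I member lay at 58.8 and 16.0 CPM per kilobase in the mimic flow-through and at 27.9 and 27.8 in the mimic AGO2-IP, so that the flow-through libraries bracketed the AGO2-IP libraries.

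In mimic-transfected cells, 1 member was lower in AGO2-IP than in flow-through and none was higher, by edgeR's quasi-likelihood test, where a call needs a log2 fold change of 1 or more in either direction and an adjusted p (Benjamini-Hochberg over all genes tested) no higher than 0.05. Of all 13078 genes tested, 0.245% passed as higher and 0.413% as lower. At an unadjusted p under 0.05, 29 of 90 members passed in either direction, as did 3107 of 13078 genes. PyDESeq2 called 7 members higher and 16 lower, against 6.43% and 8.24% of all genes. The median log2 fold change of the members was -0.75, and that of all genes tested was -0.11. Below 0 were 63 of 90 members and 6936 of 13078 genes. With the replicate number as a block, 8 members were higher and 16 lower, against 4.6% and 5.08% of all genes. The pairing behind the block was inferred from the labels and was not tested. Both AGO2-IP libraries lay above both flow-through libraries for 15 members, where 28.1% of all genes did so, and below both for 30 members, where 28.5% did. The calls depended on each of the 4 libraries. Where 1 was left out, the lone library of that fraction was assumed to vary like the other fraction. Without flow-through replicate 1, 17 members were higher and 17 lower with a median of 0.20, near the 18.8% and 18.5% of all genes called in that fit. Without replicate 2, 3 were higher and 18 lower with a median of -1.17, against 2.89% and 4.21%. Without AGO2-IP replicate 1, and likewise without replicate 2, no member passed in either direction. Genes named below that the rule stated under the processing does not name, such as ATP5F1C, ATP5F1E, ATP5MG, NDUFS8 and those passing with the block alone, were chosen after their values were seen.

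The flow-through replicates differed from each other. Replicate 1 exceeded replicate 2 by a median of 0.83 on the normalised log2 scale over the members and of 0.08 over all genes tested. By at least 1 in either direction, 51 of 90 members differed, as did 6522 of 13078 genes. Between the AGO2-IP replicates the median difference over the members was -0.01, and 7 members differed by at least 1, as did 2214 genes. Across the 90 members the difference between the flow-through replicates had a Spearman correlation of -0.61 with transcript GC content, and across the 11747 tested protein-coding genes of -0.75. Genes share libraries and base composition, so these are descriptions.

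**Figure D2:**
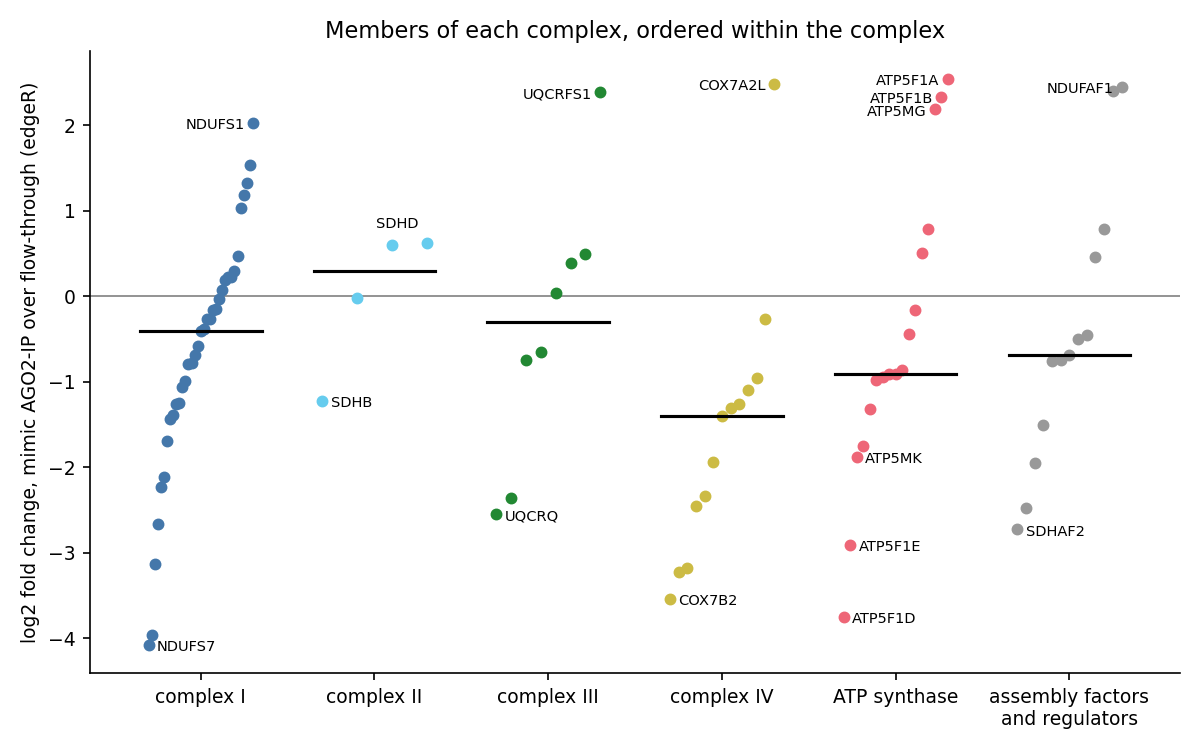
Log2 fold change of mimic AGO2-IP over mimic flow-through (y axis, edgeR) for each of the 90 members, grouped by complex (x axis) and ordered within it, with the median of each group as a black line. Members lie from -4.08 (NDUFS7) to 2.54 (ATP5F1A), and complex IV has the lowest median, at -1.40, with COX7A2L alone among its members above 0.

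The subunits of the F1 part of ATP synthase did not share 1 pattern. ATP5F1A (chr18:46080248-46104334, minus strand, GRCh38) stood at 150.4 CPM in the control flow-through, 416 and 321 CPM in the mimic flow-through, 1699 CPM in the control AGO2-IP and 1906 and 2455 CPM in the mimic AGO2-IP. Its log2 fold change with mimic was 2.54 ± 0.60 (SE), with an edgeR adjusted p of 0.0631, or 0.00425 with the replicate block. ATP5F1B (chr12:56638175-56645984, minus strand) stood at 176 CPM, then 553 and 246 CPM, in the flow-through and at 1716 CPM, then 2121 and 1812 CPM, in the AGO2-IP. Its log2 fold change was 2.33 ± 0.60 (SE), with an edgeR adjusted p of 0.0756, or 0.00828 with the block. For both genes the lowest AGO2-IP library lay well above the highest flow-through library.

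The remaining F1 subunits lay elsewhere. ATP5F1D encodes delta and ATP5F1E epsilon, the small subunits of the central stalk. ATP5F1D stood at 71.5, 66.7 and 208 CPM in the control flow-through and mimic flow-through 1 and 2, and at 39.3, 11.1 and 11.9 CPM in the AGO2-IP. With mimic the log2 fold change was -3.75 ± 0.81 (SE), with an edgeR adjusted p of 0.0545, or 0.002 with the block. ATP5F1E stood at 119, 328 and 107 CPM in the flow-through and at 22.3, 18.7 and 36.1 CPM in the AGO2-IP. This gave a log2 fold change of -2.91 ± 0.70 (SE), with an edgeR adjusted p of 0.0661, or 0.00885 with the block. For both, all AGO2-IP libraries were lower than all flow-through libraries. ATP5F1C, the gamma subunit that forms the shaft, had 92.8, 240.3 and 52.4 CPM in the flow-through and 70.7, 43 and 101 CPM in the AGO2-IP, and its fractions overlapped.

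**Figure D3:**
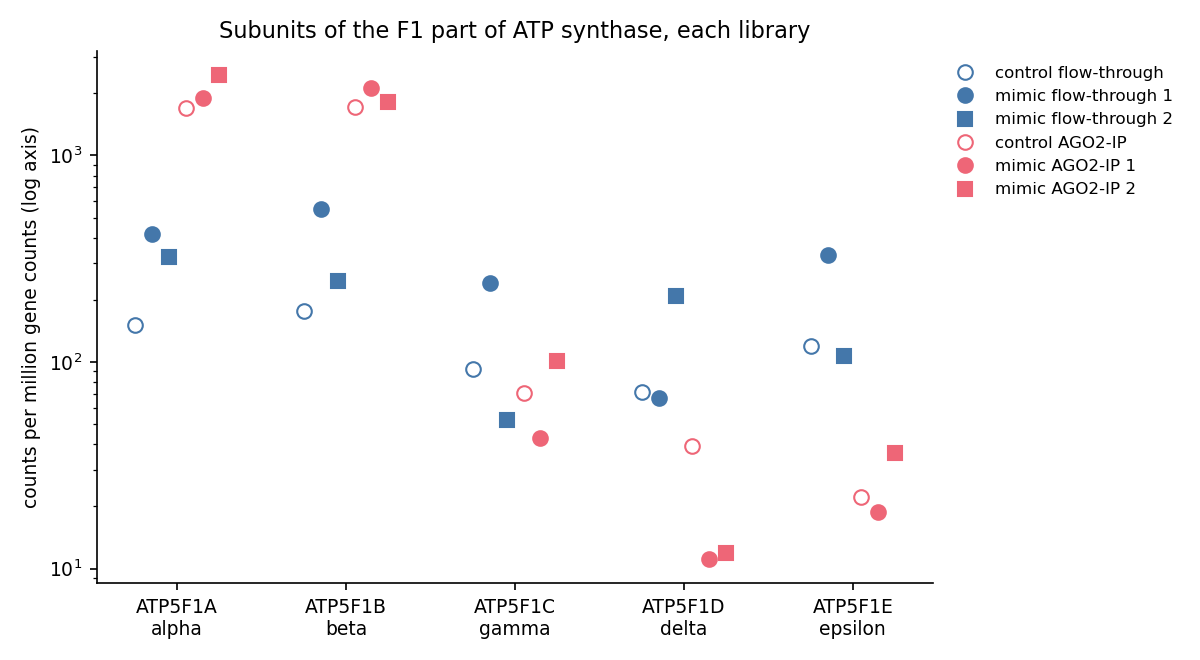
CPM (y axis, log axis) of the 5 genes of the F1 part (x axis) in each library. Alpha and beta lie higher in the 3 AGO2-IP libraries, delta and epsilon lie lower, and gamma overlaps between 43 and 240.3 CPM.

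Of the 17 ATP synthase genes, 3 were higher with the replicate block (ATP5F1A, ATP5F1B and ATP5MG) and 2 lower (ATP5F1D and ATP5F1E). Of all genes tested, 4.6% were higher and 5.08% lower in that fit. ATP5MG, the g subunit at the dimer interface, had 19.1 and 1.5 CPM in the mimic flow-through and 52.9 and 31.2 CPM in the mimic AGO2-IP, with 16.3 and 72.6 CPM in the control fractions. ATP5MC1, ATP5MC2 and ATP5MC3 encode the same mature c subunit of the membrane rotor with different import sequences. Their log2 fold changes were -0.91 (ATP5MC1), -0.16 (ATP5MC2) and 0.78 (ATP5MC3), and none passed in either edgeR fit. The sign of ATP5MC2 and of ATP5MC3 changed with the GC trend removed. ATP5MC3 had 138 and 64.1 CPM in the mimic flow-through and 163 and 176 CPM in the AGO2-IP, and ATP5MC1 had 81 and 74.3 CPM against 33.1 and 51.7 CPM.

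In complex I, 11 of 35 subunits had a log2 fold change above 0 and 24 below, with a median of -0.40. Of all 13078 genes tested, 6936 were below 0. NDUFB11, a short membrane subunit (chrX:47142071-47145466, minus strand), was the member lower in AGO2-IP. It had 58.3, 63.3 and 60.9 CPM in the 3 flow-through libraries and 9.78, 3.74 and 4.52 CPM in the AGO2-IP, a log2 fold change of -3.96 ± 0.69 (SE) with an edgeR adjusted p of 0.0383. That call was lost without AGO2-IP replicate 1 (edgeR adjusted p = 0.552) or replicate 2 (0.487), where the value stayed between -4.17 and -3.80.

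The core subunits, which carry the flavin and the iron-sulfur clusters, were found at both ends. NDUFS1, the large iron-sulfur subunit of the NADH-oxidising arm, had 35.5, 117 and 89.9 CPM in the flow-through and 165, 410.3 and 448 CPM in the AGO2-IP. Its log2 fold change was 2.03 ± 0.59 (SE), with an edgeR adjusted p of 0.0924, or 0.0488 with the block. It lay higher in every AGO2-IP library. NDUFS8, another iron-sulfur subunit, had 143, 164 and 200.2 CPM in the flow-through and 66.1, 26.7 and 34 CPM in the AGO2-IP, with an edgeR adjusted p of 0.0656, or 0.0125 with the block. NDUFS7, which carries the last cluster before the quinone, had the lowest log2 fold change of all members, -4.08, from 2.83 and 9.04 CPM in the mimic flow-through and 0.449 and 0.342 CPM in the AGO2-IP. Of its exonic bases 51.4% overlap a gene on the other strand, and read pairs there are ambiguous and left out of the unstranded counts. Its unstranded counts were 133, 439, 21 and 13 in the mimic flow-through and AGO2-IP libraries, where both strand columns together held 2752, 4029, 330 and 395, so its fold change rests on a small remainder of the reads. NDUFV1, the flavin subunit, had 126 and 217 CPM in the mimic flow-through and 212 and 123 CPM in the AGO2-IP, so its fractions overlapped. The 6 core subunits had a median of -0.28 and the 29 others of -0.59. With the GC trend removed these medians were 0.47 and -0.645, so the sign for the core subunits turned.

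Among those others, NDUFS6 and NDUFB7 were 2 of the 5 members with the highest mean CPM per kilobase, beside ATP5F1B, ATP5F1A and COX4I1. NDUFS6, a zinc-binding accessory subunit, had 53.7 and 38.7 CPM in the mimic flow-through and 175 and 98.2 CPM in the AGO2-IP, and NDUFB7 had 156 and 203 CPM against 79.4 and 39.7 CPM. They lay in opposite directions, and neither passed in either edgeR fit. With the block, NDUFA1, NDUFA11, NDUFB11, NDUFC2, NDUFS7 and NDUFS8 were lower and NDUFS1 was higher. NDUFA13 lay just inside the count minimum with 207 counts, and UQCRHL (183) and NDUFV2 (179) just outside it.

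Complex II, succinate dehydrogenase, had no call in either fit. SDHA, the flavoprotein, had 6.45 and 10.8 CPM in the mimic flow-through and 14.7 and 13.6 CPM in the AGO2-IP, with 4.25 and 28.7 CPM in the control fractions. SDHB, the iron-sulfur subunit, had 109 and 40 CPM in the mimic flow-through and 24.3 and 36.8 CPM in the AGO2-IP. The catalytic pair thus lay in opposite directions, at log2 fold changes of 0.60 ± 0.72 (SE) and -1.23 ± 0.64 (SE). Of the membrane anchors, SDHC was at -0.02, and SDHD at 0.63 with flow-through values of 47.2 and 4.8 CPM that bracketed the AGO2-IP values of 32.7 and 39.3 CPM.

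In complex III, UQCRFS1, the Rieske iron-sulfur protein, stood at 78.7, 133 and 76.3 CPM in the flow-through and at 489, 655 and 436 CPM in the AGO2-IP. The log2 fold change was 2.39 ± 0.61 (SE), with an edgeR adjusted p of 0.0736, or 0.0186 with the block. UQCRQ, a short subunit near cytochrome b, stood at 41.8, 73 and 30.4 CPM in the flow-through and at 12.3, 11 and 6.21 CPM in the AGO2-IP, with a log2 fold change of -2.55 ± 0.69 (SE) and an edgeR adjusted p of 0.0831, or 0.0194 with the block. Both genes separated the fractions in all 6 libraries, in opposite directions. UQCR11 was the other member lower with the block. UQCRC1, a large core protein, had 68.1 and 358 CPM in the control fractions but 147 and 196 CPM in the mimic flow-through and 292 and 225 CPM in the AGO2-IP, a log2 fold change of 0.49 that did not pass. UQCRH, the hinge protein, was at -0.75, and its near-copy UQCRHL had 75, 74, 20 and 14 counts in the mimic flow-through and AGO2-IP libraries.

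In complex IV, 12 of 13 members had a log2 fold change below 0, as did 6936 of all 13078 genes tested. Both AGO2-IP libraries lay below both flow-through libraries for 6 of the 13, where 28.5% of all genes did so. Mimic flow-through replicate 1 exceeded replicate 2 by a median log2 difference of 1.60 over these 13, against 0.08 over all genes tested. COX7A2, COX8A, COX6B1 and COX6C, short subunits around the catalytic core, were lower with the block. COX8A had 65.9 and 50.9 CPM in the mimic flow-through and 6.95 and 6.18 CPM in the AGO2-IP, a log2 fold change of -3.18 ± 0.66 (SE) with an edgeR adjusted p of 0.0543, or 0.00342 with the block. COX7A2 had 126 and 31.4 CPM against 7.62 and 8.05 CPM, at -3.23 ± 0.73 (SE), with an edgeR adjusted p of 0.0617, or 0.00627 with the block. Both also had less in the control AGO2-IP, at 18.4 and 8.42 CPM, than in the control flow-through, at 70.3 and 49.4 CPM. The exception was COX7A2L, a relative of COX7A2 that joins complexes III and IV into supercomplexes. It had 87.6 and 20.5 CPM in the mimic flow-through and 374 and 194 CPM in the AGO2-IP, with 40.9 and 132 CPM in the control fractions. Its log2 fold change was 2.49 ± 0.72 (SE), with an edgeR adjusted p of 0.0927, or 0.0124 with the block. COX4I1, the regulatory subunit with the highest level per kilobase in this complex, was at -0.96 and did not pass.

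The tissue-restricted isoforms of complex IV were close to absent. Summed over the mimic libraries, COX4I2 had 5 counts, COX6A2 1, COX6B2 25, COX7A1 76 and COX8C 2, and NDUFA4L2, a relative of NDUFA4, had 17. Their ubiquitous counterparts COX4I1, COX6A1, COX6B1, COX7A2, COX8A and NDUFA4 had 25758, 1305, 13704, 8091, 6127 and 9624. COX7B2 was the exception that passed the count minimum, through 1 library, with 315 counts in mimic flow-through replicate 1 and 6, 20 and 3 counts in the other mimic libraries. Its log2 fold change of -3.54 did not pass in either edgeR fit. It was at 0 in both control libraries, where 3 counts would be 0.386 and 0.371 CPM.

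Of the 13 assembly factors and regulators, NDUFAF1 and NDUFAF7 were higher with the block and SDHAF2 and SDHAF4 lower. Of all genes tested, 4.6% were higher and 5.08% lower in that fit. NDUFAF1, which builds the membrane arm of complex I, had 6.04 and 2.47 CPM in the mimic flow-through and 30.5 and 14.7 CPM in the AGO2-IP, a log2 fold change of 2.45 ± 0.75 (SE) with an edgeR adjusted p of 0.103, or 0.0257 with the block. NDUFAF7, a methyltransferase needed to build complex I, had 9.21 and 2.7 CPM against 39.5 and 20.4 CPM. SDHAF2, which helps to attach the flavin to SDHA, had 14 and 21.1 CPM against 2.7 and 3 CPM. Its log2 fold change was -2.73 ± 0.77 (SE) with an edgeR adjusted p of 0.088, or 0.015 with the block. Of the exonic bases of SDHAF2, 44.8% overlap another gene on the same strand, where read pairs are ambiguous and left out of the counts. ATP5IF1, the inhibitor of ATP synthase, was at -0.69.

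Values from the control cells, which did not receive the mimic, were set beside these differences. In the control pair, whose fractions rest on the sample titles and which has 1 library per fraction and no test, 69 members had a ratio, 9 of them at a log2 ratio of 1 or above and 33 at -1 or below, against 15.9% and 18.1% of all 8245 genes compared. The median of the members was -0.97. Relative to library size alone it was -0.09, with 16 and 13 members past the thresholds, while the median of all genes moved from 0.01 to 0.89, and 46.1% of genes were then at 1 or above and 5.06% at -1 or below. ATP5F1A and ATP5F1B had the highest control ratios of the members, 2.60 and 2.39, beside 2.54 and 2.33 with mimic, and were highest relative to library size too. SDHA had 1.82, UQCRFS1 1.74 and NDUFS1 1.32. NDUFB11 had -3.42 and COX7A2 -3.40, beside -3.96 and -3.23 with mimic.

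For 33 of the 69 members the mimic fractions did not overlap, and in all 33 the control pair lay in the same direction (13 above 0 and 20 below). Of all genes with a control ratio, 4997 of 8225 did not overlap, and in 80.9% of these the control pair lay in the same direction. Relative to library size alone the numbers were 29 of 33 and 72.1%. The medians by complex in the control pair were -0.70 for complex I, 0.01 for complex II, -1.14 for complex III, -1.76 for complex IV and -1.09 for ATP synthase, and complex IV had the lowest median in both pairs. Relative to library size alone, where the median of all genes was 0.89, they were 0.18, 0.90, -0.27, -0.87 and -0.21 in that order, so the sign for complex I turned while complex IV stayed lowest.

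**Figure D4:**
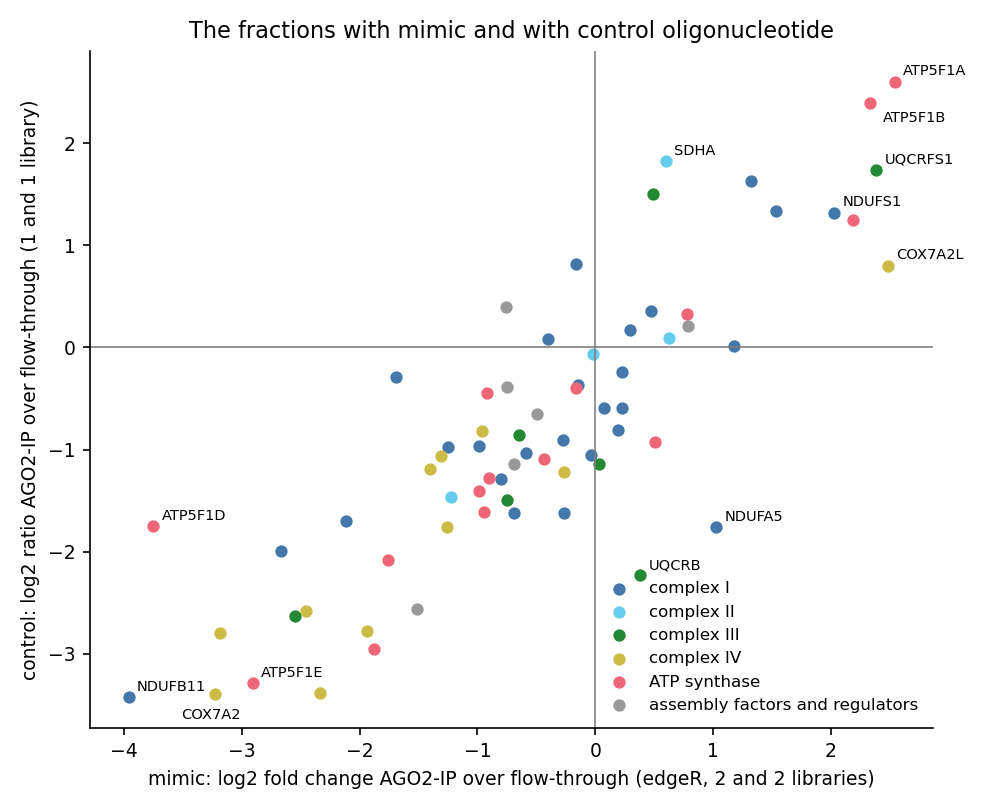
Log2 fold change of AGO2-IP over flow-through with mimic (x axis, edgeR, 2 libraries per fraction) against the log2 ratio in the control pair (y axis, 1 library per fraction) for the 69 members with both, coloured by complex. ATP5F1A and ATP5F1B lie at the top right and NDUFB11 at the bottom left, and NDUFA5 lies at 1.03 with mimic and -1.76 in the control.

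The AGO2-IP libraries of mimic and control cells were set side by side, again without a test. Their log2 ratio had a Spearman correlation of -0.56 with transcript GC content across 84 members. Across 10810 protein-coding genes it was -0.60. The part of base composition in the values below was not tested. Of 84 members, 5 had a mean log2 ratio of 1 or above and 6 of -1 or below, against 17.3% and 17.4% of all 11467 genes, with a member median of 0.05. The 5 were NDUFA5 (2.27), NDUFAF7 (1.56), NDUFS1 (1.51), COX7A2L (1.16) and NDUFB6 (1.13). NDUFA5, a small subunit of the peripheral arm, had 10.8 CPM in the control and 62.5 and 36.2 CPM with mimic. At the other end were ATP5MF (-2.35), ATP5F1D (-1.63), COX8A (-1.35), ATP5IF1 (-1.29), NDUFB11 (-1.10) and UQCR11 (-1.06). ATP5MF, a membrane subunit of ATP synthase, had 35.3 CPM in the control and 4.58 and 8.6 CPM with mimic. Of these genes NDUFS1, COX7A2L, ATP5F1D, COX8A and NDUFB11 fell under the naming rule, and the others are named as past the threshold.

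In the flow-through, 4 of 89 members had a mean log2 ratio of mimic over control of 1 or above and 13 of -1 or below, against 10% and 10.2% of all 12254 genes. The member median was -0.20. With transcript GC content this ratio had a Spearman correlation of 0.28 across 89 members and of 0.34 across 11300 protein-coding genes. For mimic flow-through replicate 1 alone the member median was 0.23, and for replicate 2 alone it was -0.67. Over all genes tested these medians were 0.15 and 0.03, so replicate 2 held the lower member values. Relative to library size alone the counts of members were 16 and 8, and 26.0% of all genes were at 1 or above and 4.16% at -1 or below. The lowest ratio was again that of ATP5MF, -3.08, with 40.8 CPM in the control and 17.2 and 2.53 CPM with mimic. UQCRB, a complex III subunit, followed at -2.53, with 92.8 CPM against 65 and 7.6 CPM. ATP5MF was thus low with mimic in both fractions, and UQCRB in the flow-through.

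The fold changes were also set against sequence features that played no part in choosing the genes. Across the 90 members the log2 fold change with mimic had a Spearman correlation of 0.41 with coding length, against 0.22 across the tested protein-coding genes, and the control ratio had 0.56 across 69 members against 0.28. Within mimic replicate 1 it was 0.49 across the members and within replicate 2 it was 0.13, against 0.28 and 0.12 across the protein-coding genes. Of all 13078 genes tested, 6936 had a log2 fold change below 0. The 30 members with the shortest coding parts (156 to 327 bases) had a median of -1.10, with 25 of 30 below 0. The 30 with the longest (519 to 2184 bases) had a median of -0.22, with 16 of 30 below 0, near the share of all genes. Among these 30 were 6 of the 8 members higher with the block. ATP5MG and COX7A2L were the exceptions, with coding parts of 312 and 345 bases. These are descriptions across genes, which are not independent replicates. With GC content the correlation was -0.26 across the members and -0.55 across the protein-coding genes. Coding length was added to the planned features, transcript length and GC content. With transcript length the log2 fold change had a correlation of 0.42 across the members and 0.30 across the protein-coding genes. The control ratio had 0.38 and 0.20 in that order.

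**Figure D5:**
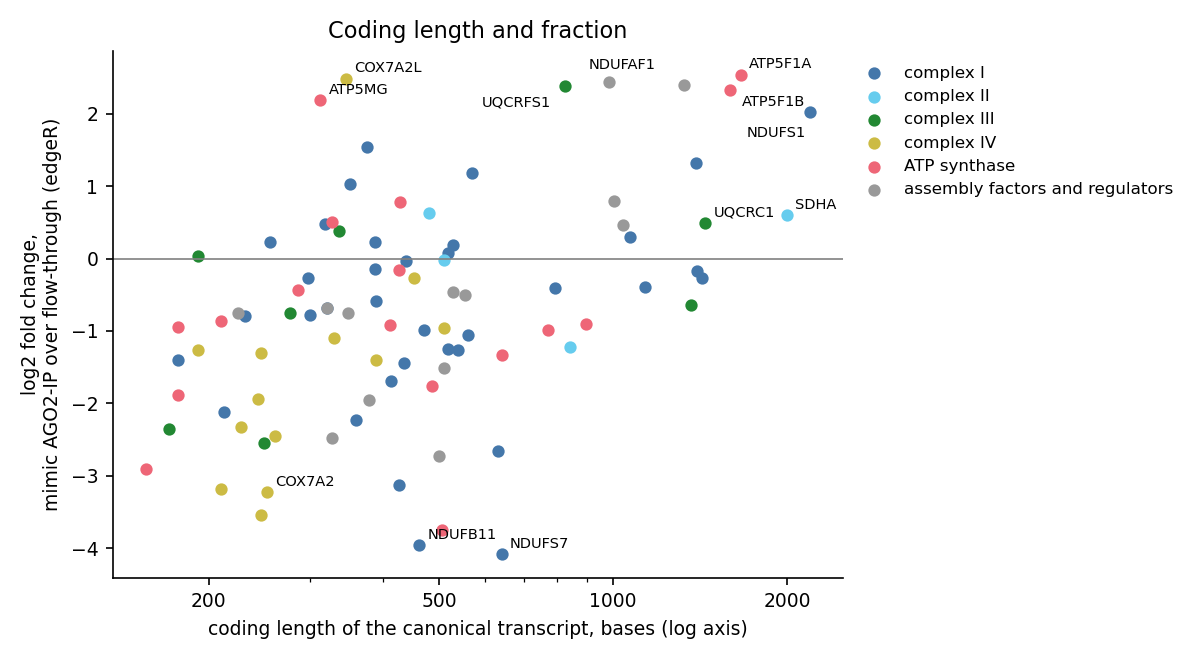
Coding length of the canonical transcript in bases (x axis, log axis) against the log2 fold change of mimic AGO2-IP over flow-through (y axis, edgeR) for the 90 members, coloured by complex. The members with the highest values include ATP5F1A (1662 bases), ATP5F1B (1590) and NDUFS1 (2184), and complex IV lies at the short end.

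RefSeq promoters (GRCh38.p14, 250 bases before to 50 after the start) were given for 76 of 90 members. The NRF1 motif GCGCATGC, searched on both strands, was in 21.1% of them, against 3.05% of all 35116 promoters and 5.53% of those of tested protein-coding genes. The GABPA motif ACTTCCGG, also on both strands, was in 14.5%, against 4.14% and 9.22%. NRF1 and GABPA are known activators of nuclear respiratory chain genes. SDHD, SDHAF2 and COX5B held both motifs, and in SDHAF2 a match of one shares its end base with the first base of the other.

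Other genes of the pathway were followed in a list of their own. Cytochrome c1 (CYC1), a complex III subunit outside the symbols, was at a log2 fold change of -0.86, and cytochrome c (CYCS) at 0.26, neither passing. Of 44 tested assembly factors outside the symbols, none passed. With the block COA5 and NUBPL were higher and COA3, COA8, DMAC2 and ECSIT lower. Of all genes tested, 4.6% were higher and 5.08% lower in that fit, which holds also for the regulators below. NUBPL, which delivers iron-sulfur clusters to complex I, was at 2.47. Of 10 regulators, TFAM, the packaging and transcription factor of mitochondrial DNA, was the 1 gene higher with the block, at 2.86 with an edgeR adjusted p of 0.063, or 0.00401 with the block. None of 12 tested mitochondrially encoded subunits passed in either fit. Their summed level against that of the 90 nuclear members was 522% for the flow-through of control cells, 99.4% for their AGO2-IP and 1.13% to 16.9% in the mimic libraries.

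Genes for ribosomal proteins, which are also short, were set beside the members in the same fit. The 93 genes for cytosolic ribosomal proteins had a median log2 fold change of -1.59 with 82 below 0, and 6 passed as lower. The 76 genes for mitochondrial ribosomal proteins had a median of -0.33 with 46 below 0, and none passed. The 77 respiratory chain subunits, without the assembly factors, lay between them with a median of -0.78 and 54 below 0, and 1 passed. Over all 13078 genes tested, 6936 were below 0.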

How the data were processed

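AGO2-IP and flow-through RNA of MDA-MB-231 cells was sequenced as paired ends in 6 libraries. The authors trimmed reads (FastQC 0.11.9, cutadapt 3.5), aligned them to GRCh38 with STAR 2.7.11b and deposited STAR's read-pair counts per gene. The annotation release is not given in the sources used here. The unstranded counts were used, since the counts of both strands were about equal. Lines of read pairs assigned to no gene, 92.3% and 95.0% in the control and 21.4% to 47.2% in the mimic libraries, stayed out of library sizes and tests. CPM are taken over gene counts. Control libraries are the shallowest, and their intervals cover counting error only.

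The 13078 genes whose counts in the 4 mimic libraries summed to 200 or more were tested with edgeR 4.0.16 (quasi-likelihood, TMM, R 4.3.3) between mimic fractions, with Benjamini-Hochberg adjustment over all of them. A run on simulated counts used less variation between replicates than these data hold, so it does not measure the error of the fit here. The common biological coefficient of variation of the fit was 0.527. Comparisons with a control library are log2 ratios of TMM-normalised CPM with a prior count of 2, without a test. The methods call the replicates biological, 2 per condition. By the sample titles the control has 1 library per fraction, whereas the supplement names its pair as replicates, and the titles were followed. The labels give each mimic AGO2-IP library and 1 flow-through library the same replicate number, and a flow-through is the unbound rest of an IP, so the numbers were taken as pairs. Deviations from the fraction means correlated between same-numbered libraries (Pearson 0.324, Spearman 0.236, across 13078 genes). With 2 libraries per fraction that sets 1 difference against 1 other, so it cannot show the pairing. The value with the replicate block is given where it changes a call. That fit has fewer residual degrees of freedom from its 4 libraries. It called 601 genes higher and 664 lower, against 32 and 54 without the block.

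Alternatives were the block, PyDESeq2 0.5.4, DESeq2 1.42.0 size factors, library size alone, count minimums of 10 and none, the strand columns, all 6 libraries, a GC trend removed (lowess, span 0.2), a prior count of 0.5 and each library left out. Of 60708 identifiers, 60463 matched GENCODE release 44, which gave transcripts and positions. Named genes were those called, the highest and lowest of each complex, the 5 with the highest mean CPM per kilobase, the SDH subunits, the isoform groups, NDUFS1, NDUFV1, UQCRC1, UQCRFS1, ATP5F1A, ATP5F1B, CYC1, CYCS and the members beside the count minimum. Another gene that the rule names is not reported here. Members and lists were chosen with earlier results of these data known. RefSeq promoters were not used for 14 members that the table does not list.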

Additional observations from a re-analysis of the deposited data

How the results depend on the processing

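Counts of members higher and lower in mimic AGO2-IP depended on the fit. They were 8 and 16 with the replicate block (4.6% and 5.08% of all genes) and 7 and 16 with PyDESeq2 (6.43% and 8.24%). No member passed with library size alone (0.069% and 0.268%), column 3 (0.0072% and 0.123%) or column 4 (0.0146% and 0.0874%). The counts were 1 and 1 at a count minimum of 10 (0.546% and 0.326%) and 5 and 6 without one (0.96% and 0.4675%). With the GC trend removed they were 4 and 12 (3.32% and 2.36%), and with that and the block 11 and 30 (14.0% and 12.7%). Leaving out 1 library gave 0 to 17 higher and 0 to 18 lower, with up to 18.8% and 18.5% of all genes. Over all genes PyDESeq2 called 841 higher and 1077 lower, against 32 and 54. The NDUFB11 call was lost with library size alone (edgeR adjusted p = 0.0558), column 3 (0.0567) and column 4 (0.0502). Of 521 values of 35 named genes, 393 kept direction and call, 93 gained the call, 5 lost it and 30 changed sign. ATP5MC2 was 0.13 at a minimum of 10, 0.16 without one, 0.21 with the GC trend removed and 0.34 with that and the block. ATP5MC3 was -0.095 and -0.046, and CYC1 0.28 and 0.29, without and with the block after GC removal. CYCS was -0.083 after GC removal. NDUFV1 was 0.29, 0.34, 0.97 and 0.93 in the order given for ATP5MC2. SDHC was 0.011 with the block, 0.30 at a minimum of 10 and 0.32 without one. With 1 library left out, these genes crossed 0: ATP5MC2 (-0.61 to 0.34), COX6A1 (-1.96 to 1.30), COX7B (-2.85 to 1.11), COX7B2 (-5.16 to 0.75), CYCS (-0.59 to 2.55), NDUFA4 (-2.09 to 0.39), NDUFV1 (-0.67 to 0.60), SDHC (-0.29 to 0.32), SDHD (-0.18 to 2.63) and UQCRH (-1.49 to 0.83). The cause was not tested.

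With library size alone the control pair had 16 members at 1 or above, 13 at -1 or below and a median of -0.091, and with column 4 the median was -1.15. Mimic over control AGO2-IP had a median of -0.080 with library size alone and 0.10 with column 4, and 11 members at 1 or above with a median of 0.37 at a minimum of 10. Leaving out a mimic library gave 6 to 8 such members and medians of 0.049 to 0.12. Mimic over control flow-through had 16 and 8 with library size alone, 2 at 1 or above with column 3 or 4, and 14 at a minimum of 10, and 3 to 11 and 4 to 31 with a library left out. Apart from library size alone, the counts of these ratios stand without the share of all genes at the same setting. The summed control AGO2-IP level was 7848 CPM without mitochondrially encoded genes, 6307 with TMM, 7158 with column 3 and 6878 with column 4. The control flow-through sum was 6224, 4680, 3699 and 3404 CPM in that order, and the mimic AGO2-IP mean 7861 and 7733 CPM with columns 3 and 4. The 2 control libraries, of 7772149 and 8076375 gene counts, set the precision of all values against them.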
